A study of Rattus norvegicus with 10 samples.

Results

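The genes described here encode the hypoxia-inducible factors (HIFs) and the enzymes that set their stability by sensing oxygen: the 3 alpha subunits Hif1a, Epas1 and Hif3a, their partner Arnt, the prolyl hydroxylases Egln1, Egln2 and Egln3, the ubiquitin ligase subunit Vhl and the asparaginyl hydroxylase Hif1an. They were chosen by name as the core of one pathway, with earlier results of these data known. Of these 9 genes, 8 had a probeset, 1 each, that the platform annotation names, out of 15037 named genes in all. Egln1 had no named probeset and is not analysed here. The arrays measured RNA of nucleus pulposus cells, the cells of the soft core of the intervertebral disc, isolated from male Sprague Dawley rats of 300 gram, given as 3 to 4 months old. One group of 5 arrays (ShCtrl) held cells given a lentivirus with a control short hairpin RNA in the vector pLKO.1. The other 5 (ShBNIP3) held cells given a lentiviral hairpin against Bnip3, a receptor for the removal of mitochondria by autophagy and itself a known HIF-1 target gene. RNA was collected 4 days after transduction in both groups. The labels do not say how many animals or cultures stand behind the arrays, or how many hairpin sequences were used, so the p-values reflect only how these samples scatter, which may be technical.

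HIFs are pairs of an oxygen-labile alpha subunit and the constant partner ARNT (HIF-1beta). When oxygen is at hand, the EGLN enzymes (PHD2, PHD1 and PHD3 for Egln1, Egln2 and Egln3) hydroxylate prolines of the alpha subunit, VHL binds the hydroxylated protein and the ligase it belongs to marks it for the proteasome, while HIF1AN (FIH) hydroxylates an asparagine and so hinders the binding of coactivators. The disc core has almost no vessels, and nucleus pulposus cells are known for holding HIF-1alpha protein even in air. Arrays measure RNA, so they bear on the supply of these transcripts and not on hydroxylation or protein stability.

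Levels are the authors' normalized values on a log2 scale, and differences are ShBNIP3 minus ShCtrl on that scale. Bnip3, the targeted gene, was at 14.29, 14.29, 13.94, 15.97 and 14.54 on ShCtrl arrays 1 to 5 and at 11.14, 11.26, 10.59, 11.31 and 12.68 on ShBNIP3 arrays 6 to 10, so the groups did not overlap. The difference was -3.21 (SE 0.40), with a limma adjusted p of 0.00020. Pearson correlations with the other arrays of the group averaged 0.992 for 8 arrays. ShCtrl array 4, at 0.983, and ShBNIP3 array 10, at 0.986, stood somewhat apart, and several results that touch them are given with and without them. Bnip3 differed by -2.87 without ShCtrl array 4 and by -3.19 without both arrays (limma adjusted p = 7.71e-05 and 4.07e-07). A probeset counted as at background on an array when it did not exceed the 95th percentile of 23 antigenomic probesets there, a level of 6.50 to 6.78. Among 13 measured nucleus pulposus markers, 7 lay at background on all 10 arrays, the notochordal genes Tbxt, Krt8, Krt18, Krt19, Noto, Foxa2 and Shh, while the aggrecan gene Acan and Car3 lay above it on every array. Of the 13, 0 rose and 3 fell, where 8.87% of all named genes rose and 8.27% fell. Those that fell were Car3 by 1.29, the collagen gene Col2a1 by 0.67 and Ndufa4l2, which is also a HIF target (limma adjusted p = 0.0048, 0.013 and 4.36e-08). Acan differed by -0.90 with all arrays (limma adjusted p = 0.19). Without ShCtrl array 4 and ShBNIP3 array 10 it fell by 0.97 (limma adjusted p = 0.020). In that fit 4 of the 13 markers fell, where 19.9% of all probesets passed. Markers of endothelium, in which Epas1 is known to be high, were at background on all arrays in 8 of 8 cases.

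Vhl was the member that changed when all arrays were compared. It fell 1.78-fold, to 56.3% of the control level. Its levels were 11.03, 10.88, 10.71, 10.89 and 11.31 on the ShCtrl arrays and 10.16, 10.01, 10.16, 10.20 and 10.16 on the ShBNIP3 arrays. Every ShBNIP3 array was below every ShCtrl array, and ShBNIP3 held a narrow range. The means were 10.97 ± 0.22 and 10.14 ± 0.07 (SD, n = 5 each), a difference of -0.83 (SE 0.13, 95% confidence interval -1.10 to -0.56) with a limma adjusted p of 0.00073. Of the 8 members, 1 fell and 0 rose, where 15.5% of all probesets passed, 7.61% upward and 7.87% downward. The groups did not overlap for 12.9% of all probesets. An exact two-sided permutation test gave p = 0.0079 for Vhl, the lowest value possible with 5 arrays a group. ShCtrl array 4 lay within the range of the other ShCtrl arrays for this gene, and the difference was -0.85 without it and -0.85 without ShCtrl array 4 and ShBNIP3 array 10. The summed level of 9 measured fibroblast and annulus markers was also lower, at 19.65 to 19.91 on the ShBNIP3 arrays and 20.01 to 20.11 on the ShCtrl arrays, with 4 down and 0 up. Most of that sum came from the collagen genes Col1a1 and Col1a2, which fell by 0.40 and 0.37 (limma adjusted p = 0.016 and 0.031). Col3a1 and Thy1 fell further, by 0.71 and 0.77 (limma adjusted p = 0.00062 and 0.0053). The other 5 markers did not pass, among them Dcn at 0.22, Lum at 0.0007, Pdgfra at 0.52 and Scx at -0.23. The nucleus pulposus markers summed to 15.30 to 15.72 on the ShBNIP3 arrays and 16.93 to 17.89 on the ShCtrl arrays. That sum came mostly from the HIF targets Ndufa4l2 and Slc2a1, which differed by -3.01 and -0.52 (limma adjusted p = 4.36e-08 and 0.44). Of the 13 measured markers of that list, 3 fell and 7 were at background on all arrays. Of 7 skeletal muscle markers 6 were at background on all arrays. The muscle list summed to 10.41 to 11.14 on the ShBNIP3 arrays and 12.50 to 13.95 on the ShCtrl arrays. Most of that sum came from Des, an intermediate filament gene, which fell by 2.53 (limma adjusted p = 5.32e-05). The part of these lists in the fall of Vhl was not tested. The fall is under the 2-fold threshold that the labels name. These are bulk samples, so fewer cells of a type and less RNA per cell cannot be told apart.

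**Figure D1:**
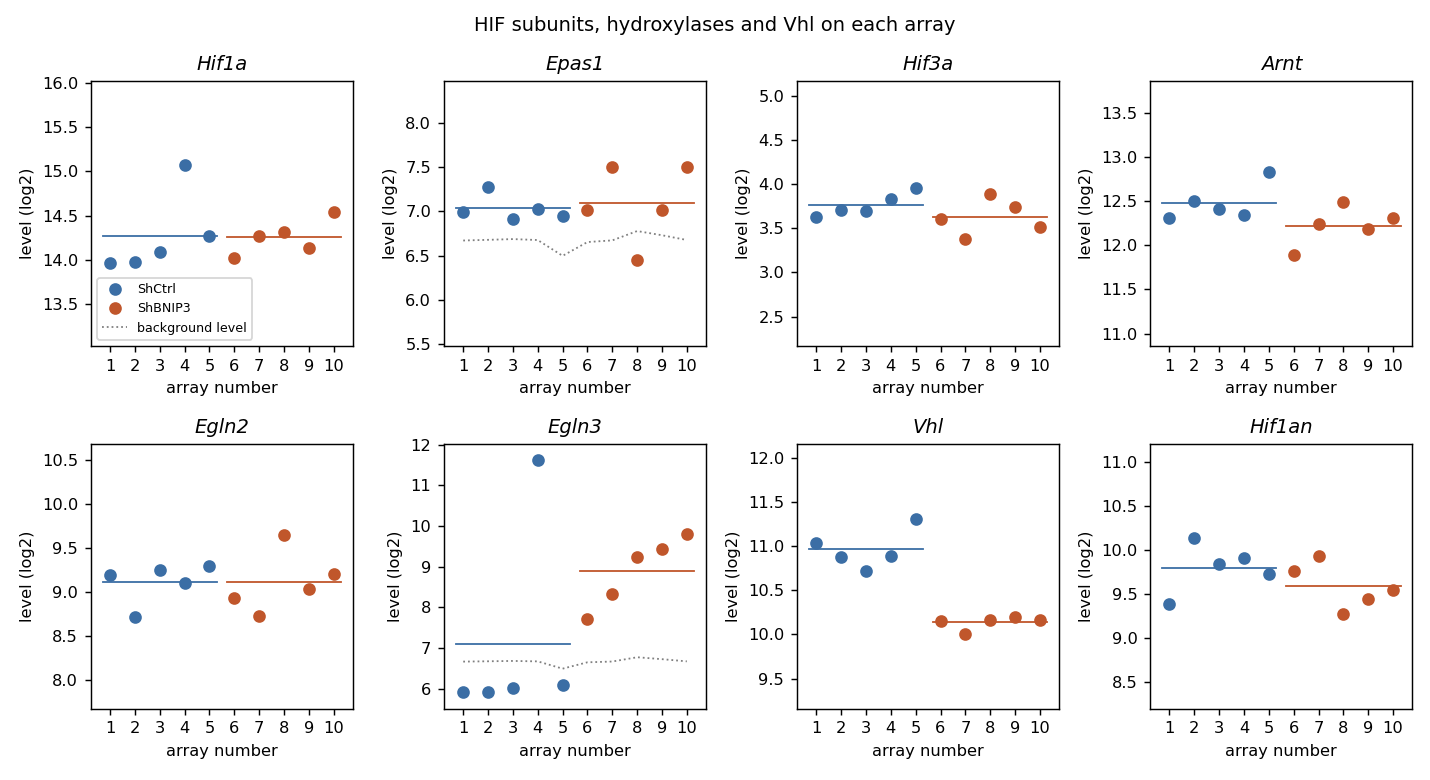
Levels (log2, y axis) of the 8 measured members on each array (x axis, arrays 1 to 5 ShCtrl, 6 to 10 ShBNIP3), with a line at each group mean and a dotted line at the background level of each array where it falls in range. Panels have their own y ranges. Vhl separates the groups, Egln3 is at background on 4 ShCtrl arrays and at 11.62 on ShCtrl array 4, and Hif3a lies below background throughout.

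Egln3, the prolyl hydroxylase whose transcript is known as one of the most hypoxia-inducible of the family, showed the widest spread of the members. Its levels were 5.93, 5.91, 6.02, 11.62 and 6.09 on the ShCtrl arrays and 7.71, 8.33, 9.24, 9.43 and 9.80 on the ShBNIP3 arrays. On 4 ShCtrl arrays it was at background, on ShCtrl array 4 it was higher than on any other array, and on all 5 ShBNIP3 arrays it was above background. With all arrays the means were 7.12 ± 2.52 and 8.90 ± 0.86 (SD, n = 5 each), and the difference of 1.79 (SE 0.95, 95% confidence interval -0.27 to 3.85) did not pass, with a limma adjusted p of 0.26 and an exact two-sided permutation p of 0.19.

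Without ShCtrl array 4 Egln3 rose. The remaining 4 control arrays averaged 5.99 ± 0.08 (SD, n = 4), all at background, and the difference was 2.91 (SE 0.35) with a limma adjusted p of 0.00012, in a fit where 17.1% of probesets passed, 7.95% upward and 9.13% downward. In that fit 1 of the 8 members rose and 1 fell. Because these controls were at background, the rise is given as a bound, at least 4.82-fold, from the ShBNIP3 mean over the background level of 6.63. The ShBNIP3 arrays then lay wholly above the ShCtrl arrays, as 18.4% of probesets did in one direction or the other without that array. Without ShCtrl array 4 and ShBNIP3 array 10 the difference was 2.69 (limma adjusted p = 7.99e-05, where 19.9% of probesets passed). With array weights it was 2.44 (limma adjusted p = 0.014, where 19.8% passed). These weights come from how far each array lies from its group in these same values. They are no separate measure of quality, so that fit is not independent of leaving out arrays that stand apart. ShCtrl array 4 itself lay at least 31.7-fold above the background level of the other 4 controls for Egln3, and 1.82 above the highest ShBNIP3 array on the log2 scale. What set that array apart was not tested. Of 10 macrophage and leukocyte markers, 8 were at background on all arrays, among them Ptprc, Csf1r and Itgam, while Cd68 and Cd14 rose, and Cd53 rose within the background range. The summed level of that list was 11.02 to 11.75 on the ShCtrl arrays and 11.96 to 13.24 on the ShBNIP3 arrays. Most of that sum came from Cd14, with means of 11.17 in ShCtrl and 12.29 in ShBNIP3. The part of the list in the Egln3 result was not tested.

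**Figure D2:**
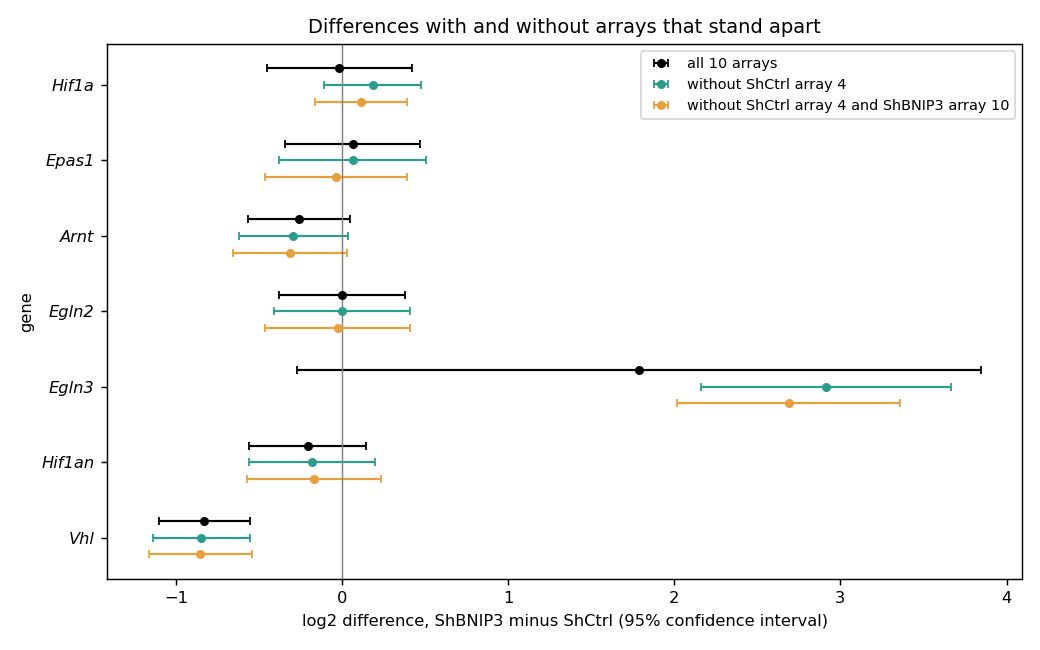
Log2 difference (x axis, ShBNIP3 minus ShCtrl) with its 95% confidence interval for the 7 members above background (y axis), from limma with all 10 arrays, without ShCtrl array 4, and without ShCtrl array 4 and ShBNIP3 array 10. The interval of Vhl lies below 0 in each case, and that of Egln3 runs from -0.27 to 3.85 with all arrays and from 2.16 to 3.67 without ShCtrl array 4.

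The alpha subunit transcripts did not pass. Hif1a, which encodes HIF-1alpha, was at 13.97, 13.97, 14.08, 15.08 and 14.26 on the ShCtrl arrays and at 14.03, 14.27, 14.32, 14.13 and 14.54 on the ShBNIP3 arrays. ShCtrl array 4 was again the highest, 1.00 above the mean of the other 4, and ShBNIP3 array 10 was the highest of its group. The difference was -0.02 (SE 0.20, 95% confidence interval -0.45 to 0.42, limma adjusted p = 0.97). Without ShCtrl array 4 it was 0.18 (95% confidence interval -0.11 to 0.47, limma adjusted p = 0.42), so a change of Hif1a RNA by 2-fold lies outside both intervals.

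Epas1, which encodes HIF-2alpha, gave a signal just above background. It was at 7.00, 7.28, 6.92, 7.03 and 6.95 on the ShCtrl arrays and at 7.02, 7.51, 6.45, 7.02 and 7.50 on the ShBNIP3 arrays, and array 8 fell under its background level. The groups overlapped, and ShCtrl array 4 sat in the middle of the controls. The difference was 0.06 (SE 0.19, 95% confidence interval -0.34 to 0.47, limma adjusted p = 0.88). Near background a change is understated, so the interval bounds the measured signal and not the transcript. Hif3a, whose gene yields a HIF alpha protein and short forms that oppose HIF activity, lay between 3.37 and 3.96 on all 10 arrays, below background on each, and no fold is given.

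Arnt, the partner of every alpha subunit, was at 12.31, 12.50, 12.41, 12.34 and 12.83 on the ShCtrl arrays and at 11.89, 12.24, 12.49, 12.18 and 12.31 on the ShBNIP3 arrays. Of the ShBNIP3 arrays, 4 lay under every control, array 10 by less than 0.01, while array 8 lay inside the control range, so the groups overlapped. The difference was -0.26 (SE 0.14, 95% confidence interval -0.57 to 0.05), with a limma adjusted p of 0.28 and an exact two-sided permutation p of 0.071. Without ShCtrl array 4 it was -0.29 (limma adjusted p = 0.23).

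The other hydroxylases did not pass. Egln2, the PHD1 enzyme, was at 9.20, 8.72, 9.25, 9.10 and 9.29 on the ShCtrl arrays and at 8.94, 8.73, 9.64, 9.04 and 9.21 on the ShBNIP3 arrays, with overlapping groups and equal means of 9.11. The 95% confidence interval of its difference was -0.38 to 0.38 (limma adjusted p = 1.00). Hif1an was at 9.39, 10.13, 9.85, 9.90 and 9.73 on the ShCtrl arrays and at 9.76, 9.93, 9.27, 9.45 and 9.54 on the ShBNIP3 arrays. Its groups overlapped, and the difference was -0.21 (SE 0.16, 95% confidence interval -0.56 to 0.14, limma adjusted p = 0.48). On ShCtrl array 4 both were inside the range of the other controls.

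The within-array ratio of 2 paralogs asks whether they moved by unequal amounts. Of 6 pairs planned, 2 could be formed, because Egln1 has no named probeset and Hif3a is at background. The log2 ratio of Epas1 over Hif1a differed by 0.08 between the groups (exact two-sided permutation p = 0.73, adjusted over both pairs 0.73). For Egln3 over Egln2 it differed by 1.79 (exact permutation p = 0.18, adjusted 0.37). Without ShCtrl array 4 the ratio of Epas1 over Hif1a differed by -0.12 (exact permutation p = 0.71, adjusted 0.71). That of Egln3 over Egln2 then differed by 2.91 (exact permutation p = 0.016, the lowest value possible without that array, adjusted 0.032). Egln3 was at background on 4 of the 5 ShCtrl arrays, so the ratio there is one of measured signals and not of levels.

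The sequences upstream of Vhl, which fell, of Egln3, which rose when ShCtrl array 4 was left out, and of Hif1a, which did not pass, are shown because HIF binds DNA through a short core, ACGTG or GCGTG, that can be read in them. Each is the 250 bases before the RefSeq start in rat build GRCr8, 5′ to 3′ on the strand of the gene, with any match to the core on either strand in capitals.
Vhl, chr4:148327849-148328098, plus strand: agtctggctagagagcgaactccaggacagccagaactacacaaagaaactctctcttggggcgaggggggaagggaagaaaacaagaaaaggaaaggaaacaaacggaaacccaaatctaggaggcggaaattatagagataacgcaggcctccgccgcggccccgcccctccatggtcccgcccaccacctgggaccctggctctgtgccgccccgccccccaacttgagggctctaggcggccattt
Egln3, chr6:77411016-77411265, minus strand: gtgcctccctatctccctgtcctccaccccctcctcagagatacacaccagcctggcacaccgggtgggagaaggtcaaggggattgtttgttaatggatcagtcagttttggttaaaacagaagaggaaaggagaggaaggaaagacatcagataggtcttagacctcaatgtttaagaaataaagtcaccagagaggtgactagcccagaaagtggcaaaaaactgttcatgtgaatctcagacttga
Hif1a, chr6:98359648-98359897, plus strand: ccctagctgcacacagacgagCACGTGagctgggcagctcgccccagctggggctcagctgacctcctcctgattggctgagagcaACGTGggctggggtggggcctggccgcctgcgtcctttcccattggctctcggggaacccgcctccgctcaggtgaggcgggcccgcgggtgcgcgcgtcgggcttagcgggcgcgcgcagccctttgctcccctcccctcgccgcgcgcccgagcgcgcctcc
The windows of Vhl and Egln3 held neither core, and that of Hif1a held ACGTG in 2 places, of which the first is the palindrome CACGTG, also known as an E-box. Of the other members, Arnt and Egln1 held 1 GCGTG each, 1 of the 2 windows of Hif3a held 2, and Epas1, Egln2 and Hif1an held none. Across 33469 windows of this length, 36.7% held at least 1 of these cores, 16.6% ACGTG, 25.9% GCGTG and 5.59% CACGTG. A match is no proof of a site, and an empty window says only that these letters are not in it.

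The proteins that work with VHL and others that govern HIF stability were counted from a list of 13, of which 12 were measured. Of these, 1 rose, 4 fell and 7 did not pass, with a median difference of -0.16 against 0.03 over all named genes, of which 8.87% rose and 8.27% fell. Eloc (elongin C), which VHL binds directly, was the member that rose, by 0.40 (SE 0.12, limma adjusted p = 0.041), and it passed in 2 of 10 fits with 1 array left out, those without array 3 or 4. Its partner Elob differed by 0.43 (SE 0.23, limma adjusted p = 0.26) and the RING subunit Rbx1 by 0.23 (limma adjusted p = 0.22). Rack1, a scaffold that can bind HIF-1alpha, fell by 0.56 (SE 0.10, limma adjusted p = 0.0026). Siah2, a ligase that targets EGLN enzymes, fell by 0.52 (SE 0.13, limma adjusted p = 0.018), and both passed in all 10 of those fits. Wdr83, known as an EGLN3-binding scaffold, fell by 0.61 (limma adjusted p = 0.022, at most 0.059 and over the threshold without array 1, 2, 6, 7 or 8). Os9, known mainly for its part in degrading misfolded proteins of the endoplasmic reticulum, fell by 0.36 (limma adjusted p = 0.034, at most 0.083 and over the threshold without array 1, 2, 5, 6, 7 or 9).

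Of 12 measured relatives of ARNT and coactivators of HIF, 2 rose, 3 fell and 7 were not called, where 8.87% of all named genes rose and 8.27% fell. Their median was -0.07, or 0.03 without ShCtrl array 4. Sim2, a bHLH-PAS factor that pairs with ARNT, fell, with a difference of -2.51 (SE 0.36, limma adjusted p = 0.00046) that became -2.19 when ShCtrl array 4 was left out. Ahrr, the repressor of the aryl hydrocarbon receptor, fell by 1.36 (SE 0.25, limma adjusted p = 0.0029), and its difference was -1.63 without that array. The clock factors diverged, as Bmal1 rose by 0.59 (limma adjusted p = 0.0087) and Clock fell by 0.47 (limma adjusted p = 0.026, at most 0.068 and over the threshold without array 1, 2, 3, 6, 7, 8 or 9). Apex1, a redox factor that keeps HIF-1 and other factors in a DNA-binding state, rose by 0.70 (limma adjusted p = 0.0018). The coactivator Crebbp differed by -0.10 (limma adjusted p = 0.75). Cited2, an inhibitor that competes for that coactivator, differed by -0.34 (limma adjusted p = 0.61), and fell without ShCtrl array 4 and ShBNIP3 array 10 (limma adjusted p = 0.049).

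Other dioxygenases that depend on oxygen were mostly not called, with 0 of 15 up, 2 down and 13 not passing. These counts are near the 8.87% and 8.27% of all named genes. Their median was -0.13, or 0.03 without ShCtrl array 4. Kdm6b, a histone demethylase, fell 2.44-fold (limma adjusted p = 0.00034, SE of the log2 difference 0.18). P4ha3, a collagen prolyl hydroxylase subunit, fell 2.45-fold (limma adjusted p = 0.010, SE 0.30). Its log2 difference was -1.30, or -1.10 without ShCtrl array 4 (limma adjusted p = 0.015). Kdm4c, chosen after its values were seen, did not pass with all arrays (log2 0.44, limma adjusted p = 0.059). It rose without ShCtrl array 4 (log2 0.54, limma adjusted p = 0.013). Of the 10 fits without 1 array it passed in 2, those without array 4 or 6. Among 10 genes known to act on HIF-1alpha synthesis, 2 rose and 1 fell, against 8.87% and 8.27% of all named genes, with a median of 0.16. The kinase gene Mtor rose by 0.62 (limma adjusted p = 0.033, at most 0.084 and over the threshold without array 1, 3, 5, 6, 7 or 10), Ikbkb, a kinase that turns on NF-kB, rose by 0.56 (limma adjusted p = 0.022, at most 0.053, over the threshold without array 3), and the transcription factor Sp1 fell by 0.45 (limma adjusted p = 0.043, over the threshold without array 1, 2, 4, 5, 6, 8, 9 or 10).

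Of 27 measured HIF target genes, other than the members and Bnip3, 1 rose, 10 fell and 16 did not pass, with a median of -0.47 against 0.03 over all named genes, of which 8.87% rose and 8.27% fell. The median was -0.26 when ShCtrl array 4 was left out. Ndufa4l2, a mitochondrial protein that lowers respiration in hypoxia, was between 16.45 and 16.75 on the ShCtrl arrays and between 13.34 and 13.80 on the ShBNIP3 arrays, with ShCtrl array 4 inside the control range, and its difference was -3.01 (SE 0.12, limma adjusted p = 4.36e-08). The differences were -3.11 for Mxi1, a MYC antagonist, -2.48 for Ndrg1, a stress-response gene, and -1.33 for the haem oxygenase Hmox1, which all fell (limma adjusted p = 2.62e-05, 0.00034 and 0.018, the last 0.051 without array 8). Without ShCtrl array 4 the difference of Hmox1 was -0.93 (limma adjusted p = 0.00077). The transferrin receptor Tfrc was the target that rose, by 1.17 (SE 0.19, limma adjusted p = 0.0011). Falls in these targets stood beside a Hif1a transcript that did not pass, an Egln3 transcript that was higher on every ShBNIP3 array than on 4 of 5 controls, and a lower Vhl transcript.

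ShCtrl array 4 was high for the targets as a whole, as it was for Egln3, Hif1a and Bnip3. Of the 23 targets above background on all arrays, 21 had their highest control value on that array, and 14 were at least 2-fold above every other control. Over 7021 named genes above background on all arrays, array 4 was the highest control for 25% and at least 2-fold above every other for 3.57%. The targets lay a median of 1.78 above the mean of the other controls on that array, and the adrenomedullin gene Adm, singled out after its values were seen, lay 5.49 above. Hif1a lay 1.00 above, and Egln3, at background on those controls, at least 4.99. On ShBNIP3 array 10 the targets lay a median of 0.14 above the other arrays of their group, while Adm was at 12.18 against 7.26 to 8.08. The labels give no treatment or handling that differs for this array, and why it stood apart was not tested.

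Without ShCtrl array 4, 3 targets rose and 10 fell, against 9.24% and 9.7% of all named genes. The hexokinase Hk2 rose by 1.00 (limma adjusted p = 0.00094) and the adenylate kinase Ak4 by 1.24 (limma adjusted p = 0.00012), both of which had differed by 0.36 and 0.72 with all arrays, and they were named after their values were seen. Both lay between the low controls and array 4 on the ShBNIP3 arrays, the order seen for Egln3. In the same fit the differences of Ndufa4l2, Mxi1 and Ndrg1 were -3.01, -2.82 and -2.12, so genes of the list moved both ways.

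**Figure D3:**
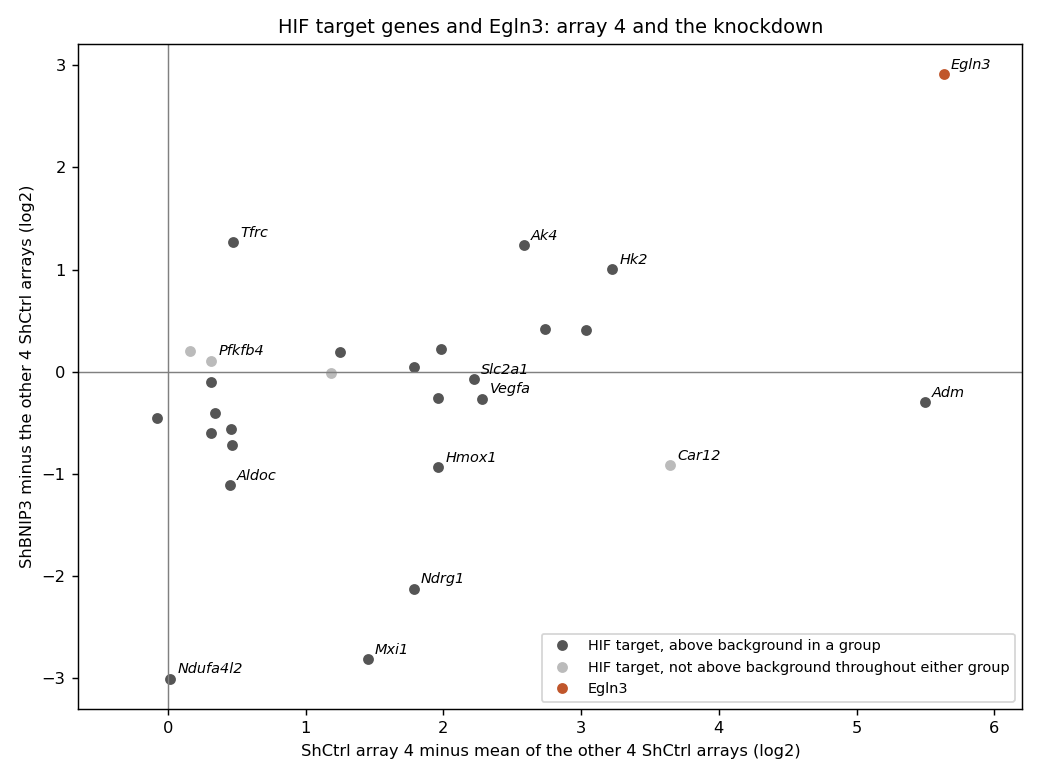
Each point is a HIF target gene or Egln3; the x axis is ShCtrl array 4 minus the mean of the other 4 ShCtrl arrays and the y axis ShBNIP3 minus those 4 arrays (both log2). Egln3, plotted at its measured signals although the other 4 controls are at background, is at 5.63 and 2.91, Ndufa4l2 at 0.02 and -3.01, and most targets lie to the right of 0.

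The genes whose profile over the 10 arrays was nearest to a member's were found by the root mean square difference between log2 profiles, each less its own mean, among 7021 named genes above background on all arrays, for the 3 members with the largest SD. For Egln3 these were Nfkbia, which encodes the NF-kB inhibitor IkBalpha, at a distance of 0.59, the cortisone reductase gene Hsd11b1 at 0.67 and the proteoglycan gene Vcan at 0.75, where the median gene was at 1.94. Egln3 was at background on 4 ShCtrl arrays, so its distances compare measured signals and not levels. Genes that were likewise at background on some arrays were not among those compared. Nfkbia was at 8.41, 8.63, 7.72, 12.24 and 8.43 on the ShCtrl arrays and between 10.44 and 12.22 on the ShBNIP3 arrays, so it too was low on 4 controls and high on array 4. For Vhl the nearest were Sumf1 at 0.11, the ribosomal protein gene Rpl10 at 0.14 and the cathepsin gene Ctsl at 0.15. For Hif1a they were Gopc, Ctdspl2 and Fermt2, at 0.11 to 0.12, each with its highest value on ShCtrl array 4. All genes of an array share its hybridisation, so a like profile describes these 10 arrays and no more.

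**Figure D4:**
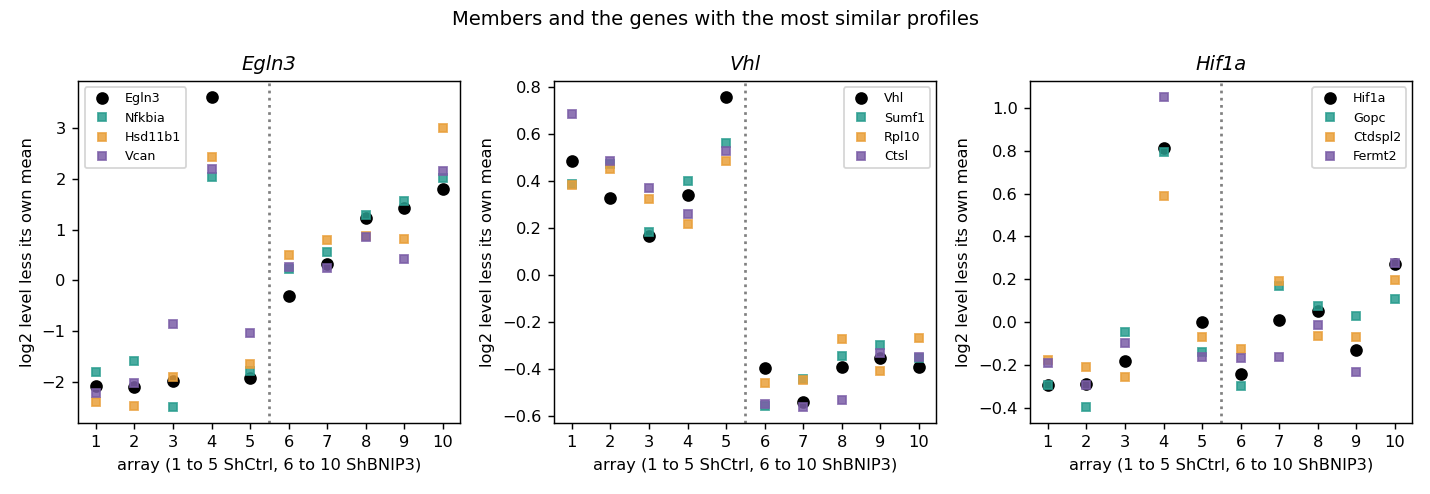
Log2 level less its own mean over the 10 arrays (y axis) on each array (x axis, 1 to 5 ShCtrl, 6 to 10 ShBNIP3) for Egln3, Vhl and Hif1a (black) and the 3 named genes nearest to each (coloured squares). Array 4 stands above the other controls for Egln3 and Hif1a and their nearest genes and not for Vhl. Egln3 is plotted at its measured signals although 4 ShCtrl arrays are at background.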

How the data were processed

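RNA of 10 samples was hybridised to whole-transcript arrays. The values deposited are on a log2 scale, with 1 value for each probeset on each array, and the authors normalized them by sst-rma, per the labels. The Transcriptome Analysis Console is named in the submitters' processing notes. The build and version are not given in the sources used here. The extraction text in the labels also speaks of mouse tissue, which was not used. Groups were taken from the titles. Of 24834 probesets, 1646 controls were left out and 23188 tested with limma 3.58.1 (lmFit and eBayes, R 4.3.3), ShBNIP3 against ShCtrl, with Benjamini-Hochberg adjustment over all of them and a threshold of 0.05. Every adjusted p of a gene is from limma. Names came from the platform annotation, whose 15049 Entrez identifiers were all found in the RefSeq table of GRCr8, and no member's probeset shared its values with another. Where a gene had more than 1 probeset, the brightest on average was used. Exact permutation tests used scipy 1.17.1. The number of arrays limits the precision.

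The members and gene lists were chosen with earlier results of these data known. Named genes are the members, Bnip3, up to 4 called genes in each direction of each list, some direct partners of VHL and HIF, and the 3 genes nearest to each of 3 members; others are marked in the text. The limma step was tested on simulated data. Alternatives were another variance model, array weights, quantile normalization, a filter on dim probesets, exact permutation tests and fits without single arrays.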

Additional observations from a re-analysis of the deposited data

Results flagged for a closer look

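Among the measured members and Bnip3, 16 groups of 5 arrays were examined, which is not every group of these genes. In 3 of them a single array stood apart from the other 4. There the gap to the nearest array, divided by the range of the group, exceeded 0.71. Chance gives about 1 in 20. Egln3 had a ratio of 0.969 in ShCtrl, where array 4 was at 11.62 and the others were between 5.91 and 6.09. Hif1a had a ratio of 0.734 in ShCtrl, again from array 4, at 15.08 against 13.97 to 14.26. Among 7021 named genes above background on all arrays, 5.04% had such a high value on that array. This share counts only high values on array 4. The 1 in 20 covers any of the 5 arrays, high or low, so the shares are not alike and should not be set against each other. Vhl had a ratio of 0.778 in ShBNIP3, where array 7 was at 10.01 and the others were between 10.16 and 10.20, a gap that is small beside its distance from the controls. Bnip3 was not among the 3, although ShCtrl array 4 was its highest control, at 15.97 against 13.94 to 14.54.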

How the results depend on the processing

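Of 371 values recomputed for 24 results, 327 stayed on the same side of the threshold or, for counts, within 1.5 times, 5 passed the threshold anew, 39 counts moved by over 1.5 times and 0 reversed a call. Of the 151 that are differences or ratios, 18 changed sign, all for Hif1a, Epas1, Egln2 or the ratio of Epas1 over Hif1a and 0 of them past the threshold. Vhl passed under every alternative run, with differences of -0.89 to -0.74 over the fits without 1 array. Egln3 passed with array weights (2.44), without ShCtrl array 4, and without that array and ShBNIP3 array 10 (2.69), and its differences without 1 array were 1.49 to 2.91. The log2 ratio of the measured signals of Egln3 over Egln2, with Egln3 at background on 4 ShCtrl arrays, differed by 2.71 without both arrays and 1.47 to 2.91 without 1. Its unadjusted exact permutation p was 0.029 without both arrays and 0.016 to 0.33 without 1. Members called up numbered 1 with array weights and without both arrays, and 0 to 1 without 1 array. HIF targets called up numbered 2 with array weights, 4 without both arrays and 1 to 3 without 1. Other dioxygenases called up numbered 1 with array weights, the dim filter, the trended and robust variance and without both arrays, and 0 to 1 without 1. VHL partners called up numbered 0 after quantile normalization and 0 to 1 without 1 array, and those called down 2 to 4. Regulators of HIF-1alpha synthesis called up numbered 0 to 2 without 1 array, and those called down 0 without both arrays and 0 to 1 without 1. Apart from what these fits show, the cause was not tested. Epas1 lies near background and Hif3a below it, which limits what the arrays can show of both. The labels do not say which arrays of the 2 groups, if any, share an animal or culture, so no paired analysis was made.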
